A study of Drosophila melanogaster with 3 samples.

Results

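The summits described here are the Nerfin-1 binding sites that lie more than 100 bp and up to 500 bp from a protein-coding transcription start site (TSS), beside the core promoter rather than on it. They were taken from the list of peaks that passed an irreproducible discovery rate (IDR) threshold, where 1393 of 7056 summits (19.7%) met the rule. A start site was eligible if no other protein-coding gene on the opposite strand had one within 500 bp of it, and each summit was given to its nearest protein-coding start site. Of the members, 1030 were upstream of the start site and 363 downstream.

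Bound chromatin was immunoprecipitated and sequenced (ChIP-seq) with an antibody against green fluorescent protein (GFP) in 3 biological replicates of Drosophila melanogaster, which form 1 group. Each replicate was a collection of whole embryos of both sexes aged 4 to 16 h, from a transgenic line that stably makes Nerfin-1 fused at its C terminus to GFP. All 3 carry the transgene, share 1 label for the donor line and contain every cell type of the embryo, so a site may be bound in some tissues and not in others. No untagged embryos were analysed here, and since the files hold peaks and no reads, the depth behind each peak is unknown.

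Nerfin-1 is a zinc-finger protein that neurons make soon after they are born. It is related to vertebrate INSM1, is known for its role in axon guidance and for keeping neurons from returning to a stem-cell state, and can bind DNA together with Scalloped, the TEAD-family factor of the Hippo pathway. In flies the core promoter holds the elements that place RNA polymerase, while the sequence just upstream often holds sites for promoter-associated factors such as GAGA factor. The sequence just downstream is mostly 5′ untranslated region, first intron or first coding exon.

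Windows of 50 bp to either side of 9 summits are shown to give a view of the DNA under strong upstream and downstream sites. They are the strongest 4 on each side among those that lie on the arms used for display and whose window overlaps no exon. The summit beside nerfin-1 itself was added. Not every chromosome arm was used for display, so members stronger than some of those shown may be left out. Sequence is from RefSeq release 6 with dm6 coordinates and is written 5′ to 3′ in the direction of the gene, on the strand named. Capitals mark matches to any of 13 short words described further on. The upstream summits were those of trbl, RpS10a, H15, CG18549 and nerfin-1.
trbl, chr3L:20401763-20401863, minus strand: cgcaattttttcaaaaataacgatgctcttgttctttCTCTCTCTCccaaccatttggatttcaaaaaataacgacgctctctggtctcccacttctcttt
RpS10a, chr3R:27652281-27652381, plus strand: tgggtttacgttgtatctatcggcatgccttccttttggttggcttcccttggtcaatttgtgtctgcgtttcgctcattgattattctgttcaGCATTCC
H15, chr2L:5403752-5403852, plus strand: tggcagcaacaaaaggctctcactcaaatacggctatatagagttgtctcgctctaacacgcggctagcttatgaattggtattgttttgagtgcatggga
CG18549, chr3R:12449114-12449214, plus strand: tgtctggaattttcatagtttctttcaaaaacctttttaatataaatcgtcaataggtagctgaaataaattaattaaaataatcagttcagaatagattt
nerfin-1, chr3L:908934-909034, plus strand: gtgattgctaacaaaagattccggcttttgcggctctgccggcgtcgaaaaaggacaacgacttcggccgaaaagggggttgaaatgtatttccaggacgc
The downstream summits were those of Pp2A-29B, spi, Synd and dikar.
Pp2A-29B, chr2L:8366483-8366583, plus strand: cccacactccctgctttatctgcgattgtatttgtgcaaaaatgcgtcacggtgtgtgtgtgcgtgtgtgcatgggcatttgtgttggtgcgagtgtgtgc
spi, chr2L:19572096-19572196, minus strand: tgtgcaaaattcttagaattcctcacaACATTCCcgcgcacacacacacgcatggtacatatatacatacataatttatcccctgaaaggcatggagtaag
Synd, chr3R:20832914-20833014, plus strand: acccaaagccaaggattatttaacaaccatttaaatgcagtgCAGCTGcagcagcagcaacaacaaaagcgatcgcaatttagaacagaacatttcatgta
dikar, chr3L:6742216-6742316, minus strand: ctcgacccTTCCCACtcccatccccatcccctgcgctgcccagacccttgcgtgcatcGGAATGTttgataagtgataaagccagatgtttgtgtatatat

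In these windows the capitals at trbl are overlapping GAGA words (GAGAGAG, here on the other strand), those at RpS10a and spi are Scalloped words (ACATTCC or GCATTCC), and dikar held a Scalloped word and a word for Su(H), the DNA-binding factor of Notch signalling (GTGGGAA). Synd held the E-box CAGCTG, a word read by basic helix-loop-helix factors. H15, CG18549, Pp2A-29B and nerfin-1 held none of the 13. The CG18549 window was 22.8% G+C, against 51.5% at nerfin-1 and at dikar.

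The members lay mainly upstream. The upstream share was 73.9% in the IDR list (Wilson 95% interval 71.6 to 76.2%), although upstream positions made up 48.7% of the sequence in which a member could lie. When the same rule was applied to the 7056 strongest peaks of each replicate, it was 68.2% of 1392 in replicate 1, 80.7% of 1474 in replicate 2 and 67.0% of 1386 in replicate 3, a mean of 72.0 ± 7.59% (SD, n = 3). Replicate 2 was the highest, and all 3 lay above the share of sequence. Among the 22944 pooled peaks too weak for the IDR list, 2576 met the rule and 60.7% of these were upstream.

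Per megabase of eligible sequence, there were 209 upstream and 70.0 downstream summits in the IDR list, a ratio of 2.99. The ratio was 2.26 in replicate 1, 4.42 in replicate 2 and 2.14 in replicate 3 (mean 2.94 ± 1.28, SD, n = 3). The excess ran in the same direction in each replicate and was largest in replicate 2. The strength of the side preference differed along the distance. Upstream counts were 229 in the first 50 bp beyond the core, 218 in the next 50 bp and 45 in the last 50 bp, while downstream counts were 100, 53 and 33 in the same bins. The median distance was 217 bp upstream and 233 bp downstream.

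**Figure D1:**
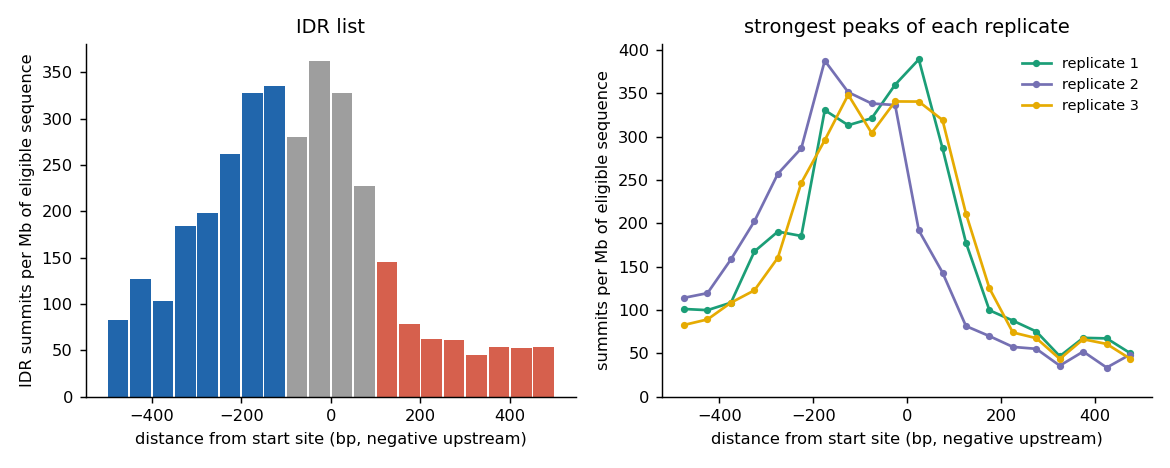
Summits per megabase of eligible sequence in 50-bp bins of distance from the nearest start site (x axis, bp, negative upstream), for the IDR list (left, bars; blue upstream members, red downstream members, grey core) and the 7056 strongest peaks of each replicate (right, lines). In the IDR list 335 per megabase in the first upstream bin beyond the core stand against 146 in the first downstream bin, and replicate 2 is the lowest line from the start site to 450 bp downstream.

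Neither limit of the rule fell at a break in the data. There were 70 members in the first 10 bp inside the inner limit and 64 core summits in the 10 bp before it, and 18 members in the last 10 bp inside the outer limit against 17 summits in the 10 bp beyond it. Many members also reached the start site with their interval: 554 of 1393 peak intervals (39.8%) covered it. A core summit of the IDR list stood at the same start site for 93 members (6.68%). The members were thus mostly the sole IDR summit near their start site, yet often in intervals that span it. Peak intervals were often of 1 fixed width of 436 bp (483 members, 34.7%, against 2752 of all 7056 IDR summits). An interval was shared with another summit of the list by 106 members.

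Members were rare in coding sequence. Downstream, 8.26% (30 of 363) fell in a coding exon, against 44.6% of reference positions downstream of all eligible start sites, weighted to the same distances. The share was 9.05, 9.51 and 12.3% in replicates 1, 2 and 3 and 22.2% among weaker pooled summits. The downstream members lay in 5′ untranslated regions (48.8%, reference 29.0%) and introns (41.0%, reference 24.4%) in their place. Upstream, 0.291% (3 of 1030) fell in a coding exon, 51.7% in intergenic sequence and 38.8% in an intron, against 6.02, 51.1 and 29.9% of the reference. The upstream coding share was 0.632, 0.252 and 0.431% in the 3 replicates.

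Introns can be upstream because a gene may have several start sites or lie within another gene. Of the members, 37.5% lay nearest to an internal start site, downstream of the first start site of its gene, 23.1% nearest to the first of several and 39.3% nearest to an only start site. Among the 15007 eligible start sites the shares were 32.4, 17.1 and 50.5%. With only the first start site of each gene counted, the upstream share was 65.1%. The members were spread over the chromosome arms, with 9.07 to 9.74 summits per 100 eligible start sites on the 5 large arms and 7.32 on chromosome 4, which held 9 members.

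Most members were found again in single replicates. A summit was called recurring where one of the replicate's 7056 strongest peaks had its summit within 100 bp. Of the 1393 members, 79.8% recurred in replicate 1, 76.7% in replicate 2 and 76.4% in replicate 3 (mean 77.6 ± 1.85%, SD, n = 3), against 78.2%, 73.8% and 73.8% of all IDR summits. In all 3 replicates 732 members recurred (52.5%, Wilson interval 49.9 to 55.2%), against 47.3% of all IDR summits. The IDR list consists of the strongest pooled peaks, so the replicates are not independent of it. Recurrence went with strength. Among the weakest 1412 summits of the IDR list 1.20% of upstream and 1.69% of downstream members recurred in all 3, and among the strongest 1411 it was 93.9 and 94.0%. In the class below the strongest it was 70.2% of upstream and 73.2% of downstream members against 76.9% of all summits, in the middle class 40.7 and 51.4% against 47.7%, and in the next 18.4% of upstream members against 17.0% of all summits, with the downstream members above both. Members were thus below all summits of like strength in some classes and above them in others.

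The sides differed by replicate. Upstream members recurred at 77.0% in replicate 1, 81.4% in replicate 2 and 73.9% in replicate 3. Downstream members recurred at 87.6, 63.6 and 83.5%. Downstream members were thus higher in replicates 1 and 3, by 10.6 and 9.59 percentage points, and lower by 17.7 points in replicate 2, so that the mean difference was 0.826 ± 16.1 points (SD, n = 3; exact two-sided sign-flip permutation test over the replicates, p = 1). With 3 replicates the smallest p this test can give is 0.25, so no comparison here could pass 0.05. The 863 core summits followed the downstream members, at 82.7, 63.5 and 78.8%. Summits whose nearest start site was within 500 bp but not eligible were highest in replicate 2, like upstream members, at 70.2, 85.4 and 68.4%. The members exceeded the core by 13.2 points in replicate 2 and differed from it by -2.98 and -2.41 points in replicates 1 and 3 (mean difference 2.62 ± 9.21 points, exact p = 1).

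**Figure D2:**
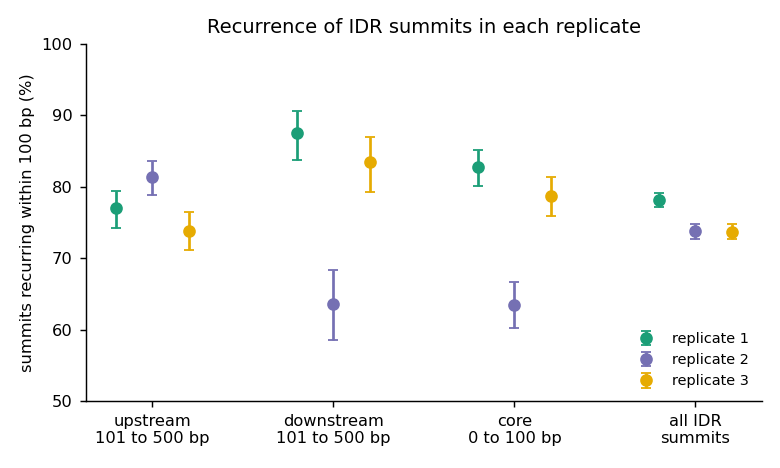
Share of IDR summits (y axis, percent, axis from 50) that had a counterpart within 100 bp in the 7056 strongest peaks of each replicate, for upstream members, downstream members, core summits and all IDR summits. Points are replicates and bars are Wilson 95% intervals over summits. Replicate 2 is the highest for upstream members, at 81.4%, and the lowest for downstream members and the core, at 63.6 and 63.5%.

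The position of recurring summits was close. The median offset was 9 bp in replicates 1 and 2 and 15.5 bp in replicate 3, and 93.5, 94.8 and 92.9% of the recurring members again met the rule on the same side. Those that did not were mostly moved into the core, as 58, 45 and 54 were. Among the 1393 members, 644 (46.2%) kept class and side in all 3 replicates. When all 30000 peaks of each replicate were searched, 92.3 ± 0.777% of members recurred, against 93.0% of all IDR summits and 92.4% of core summits.

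The members ranked above core summits in signal, the authors' peak strength, used here for order within a list alone. The median rank of a member was 2875 of 7056, with 2725 upstream and 3445 downstream, against 4067 for core summits, where rank 1 is the strongest. All IDR summits had a median of 3528.5, near that of downstream members. Summits whose nearest start site was within 500 bp but not eligible had 3083. Over the summits matched in all 3 full lists, the medians in replicates 1, 2 and 3 were 2804, 2682 and 2936 for members and 3245, 4985 and 3429 for core summits, the widest gap being in replicate 2. Of the first 100 ranks, 31 were members, 20 of them upstream, while members were 19.7% of the whole list. The order of the replicates again differed by side. For the 844 upstream members matched in all 3 full lists, replicate 2 gave the best of the 3 ranks to 58.1%, and for the 283 such downstream members it gave the worst to 63.3%. It also gave the worst rank to 58.4% of the 687 such core summits.

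The strongest site of the whole list was a member, the summit 204 bp upstream of trbl, which encodes Tribbles, a pseudokinase that holds back cell division (rank 1). Its ranks in replicates 1, 2 and 3 were 1, 20 and 1, with signals of 3739, 1902 and 3160. RpS10a, a ribosomal protein gene, had rank 4 with a summit at 429 bp upstream and ranks 3, 106 and 3. Both were lower in replicate 2 than in the others. mRpL41, for a mitochondrial ribosomal protein, went the other way, with rank 10 at 137 bp upstream and ranks 83, 2 and 94. So did px, a wing-vein gene (rank 14, then 43, 5 and 57), CG18549 (rank 26, then 54, 13 and 53), Fkbp14, for a protein-folding enzyme (rank 31, then 58, 11 and 91) and CG1888 (rank 43, then 82, 16 and 98). H15, a T-box transcription factor gene, had rank 11 and was close in all 3, at 16, 24 and 23. The last of the upstream 10 was sbb, a transcriptional corepressor gene, with rank 46 and ranks of 41, 77 and 47.

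Downstream, the strongest was 367 bp inside msps, for a microtubule-growth factor, with rank 7 and ranks of 14, 10 and 14 in the replicates. Pp2A-29B, the scaffold subunit of protein phosphatase 2A, had rank 17 at 495 bp, and ranks 10, 125 and 10. spi, for the epidermal growth factor receptor ligand Spitz, had rank 19 at 464 bp, and ranks 15, 49 and 17. The lower place in replicate 2 also held for Synd, a membrane-bending protein gene (45, 114 and 35), dikar (47, 218 and 28), PDZ-GEF, an exchange factor for Rap proteins (59, 129 and 42), and CG11360 (57, 176 and 36). It did not hold for CTCF, an insulator protein gene (52, 17 and 62), or scrib, a cell-polarity gene (107, 64 and 118). ph-p, a Polycomb gene, was among the 10 strongest on both sides, at 461 bp upstream of one start site (rank 27) and 423 bp downstream of another (rank 91), and both of its summits ranked best in replicate 2.

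**Figure D3:**
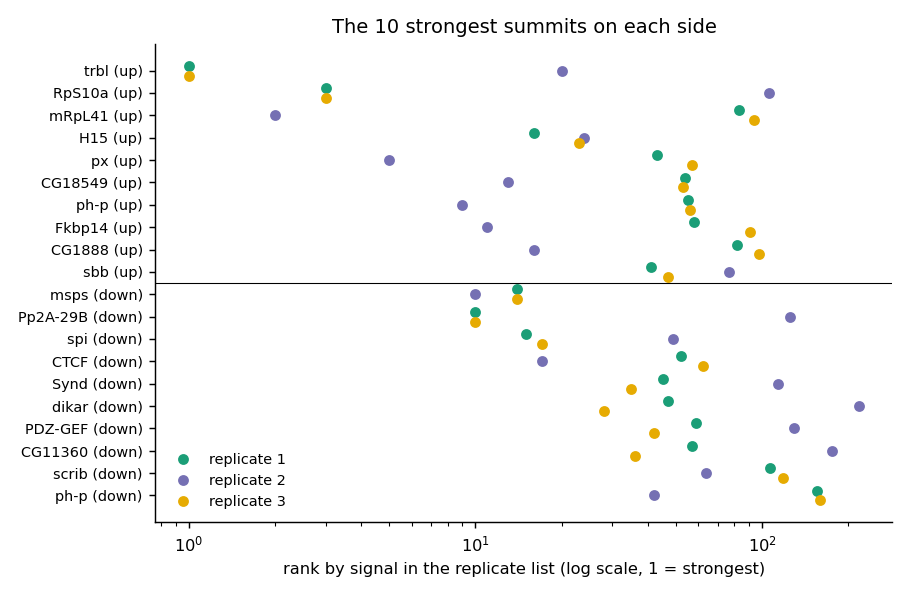
Rank by deposited signal in the full list of each replicate (x axis, log scale, 1 is strongest) for the 10 strongest upstream (up) and 10 strongest downstream (down) members. Points are replicates. Replicate 2 stands apart from replicates 1 and 3 at most genes, as at RpS10a (106 against 3 and 3) and mRpL41 (2 against 83 and 94).

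The base composition of the members differed between sides, as did that of the reference. The 200 bp around the summit held 37.0% G+C upstream and 43.4% downstream in the IDR list, against 38.6 and 45.5% for the distance-weighted reference. The sides of the reference were thus farther apart than those of the IDR members. The difference between sides was not tested against that of the reference. By replicate, upstream summits held 39.7, 34.0 and 39.8% and downstream summits 44.2, 42.3 and 44.5%. Downstream exceeded upstream in each replicate, by 4.48, 8.27 and 4.70 percentage points (mean 5.82 ± 2.13, SD, n = 3; exact sign-flip permutation p = 0.25, the smallest possible).

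The members of replicate 2 were A+T-rich at the summit itself. The summit minus a flank 300 bp farther from the start site came to 0.136 points in replicate 1, -5.03 in replicate 2 and 0.0743 in replicate 3 (mean -1.60 ± 2.96, SD, n = 3; exact permutation p = 1). Replicate 2 alone carried the negative mean. Flanks were alike, at 41.0, 40.6 and 41.3%.

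**Figure D4:**
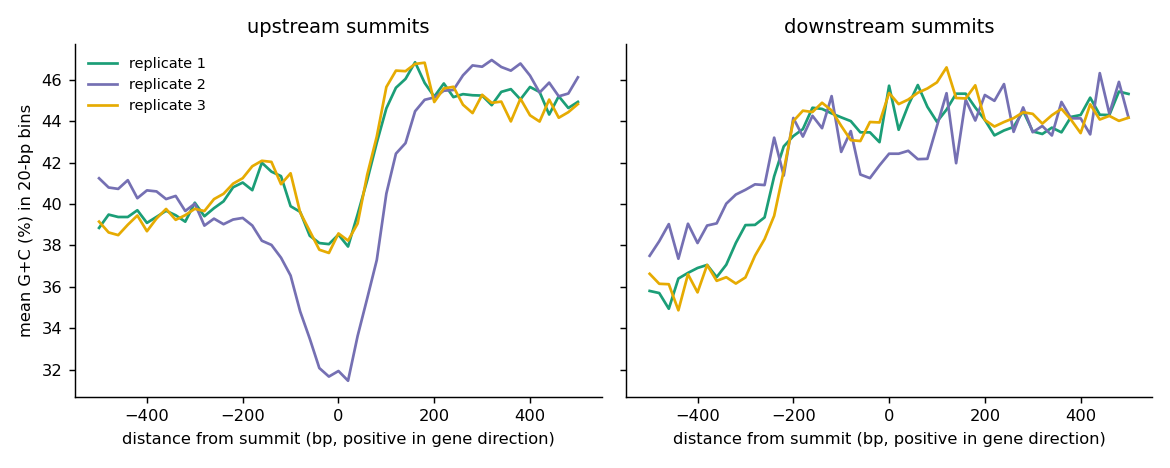
Mean G+C content (y axis, percent, axis not from 0) in 20-bp bins against distance from the summit (x axis, bp, positive in gene direction) for upstream (left) and downstream (right) members of the strongest peaks of each replicate. Upstream summits dip in every replicate and deepest in replicate 2, whose 200 bp at the summit average 34.0% against 39.7 and 39.8%.

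Recurrence of the members followed base composition in opposite ways in replicate 2 and in replicates 1 and 3. The split by G+C was made for the members only, so it cannot be called particular to them. Among the members in the third with the lowest G+C (15.4 to 32.8%, n = 474), 69.8% recurred in replicate 1, 96.6% in replicate 2 and 65.2% in replicate 3. Among those in the third with the highest (43.8 to 65.7%, n = 463), it was 88.8, 55.1 and 87.9%. Both sides showed this order. Upstream members went from 97.0 to 51.9% in replicate 2 and from 69.4 to 87.8% in replicate 1, and downstream members from 91.7 to 59.6% in replicate 2 and from 69.4 to 88.1% in replicate 3. The part of base composition in the difference between sides was not tested. Of the upstream members 438 of 1030 were in the lowest G+C class and of the downstream members 36 of 363. Upstream density exceeded downstream density within each class, 3.62, 2.12 and 2.86 times over from lowest to highest, counted per reference position of the same G+C class. In replicates 1, 2 and 3 the ratios were 3.04, 4.81 and 3.26 in the lowest class, 1.68, 3.23 and 1.64 in the middle and 2.81, 2.45 and 2.55 in the highest.

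**Figure D5:**
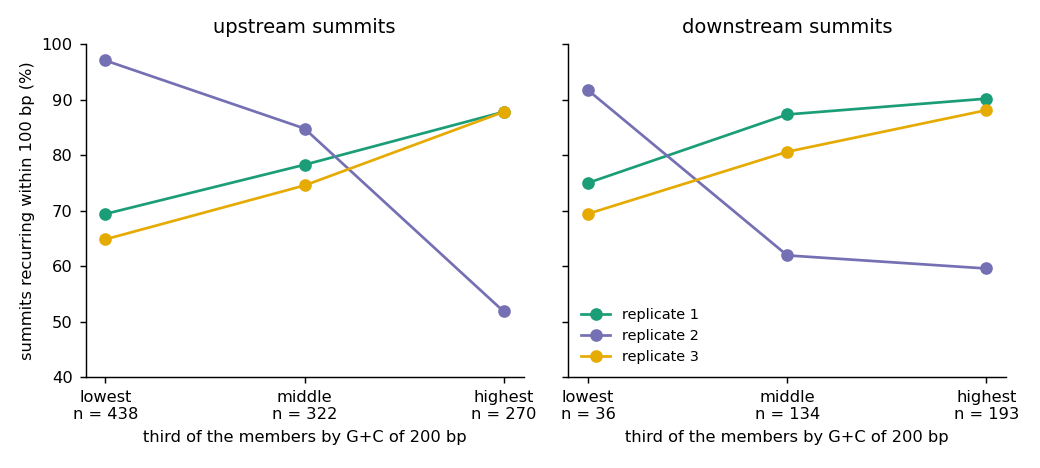
Share of members recurring within 100 bp in each replicate (y axis, percent, axis from 40) split into 3 classes of G+C content of the 200 bp around the summit (x axis), for upstream (left) and downstream (right) members. Lines are replicates. Replicate 2 falls from 97.0 to 51.9% upstream while replicates 1 and 3 rise to 87.8%.

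Of the 13 words sought within 50 bp of the summit on both strands, the Scalloped word stood farthest above its flank. It was found at 63 of 1393 members (4.52%, Wilson interval 3.55 to 5.74%) and in 1.72% of equal windows 300 bp farther from the start site. The share was 5.03, 3.73 and 4.69% in replicates 1, 2 and 3, with 1.65, 1.97 and 1.80% in the flank (mean difference 2.68 ± 0.827 points, SD, n = 3; exact permutation p = 0.25, adjusted over the words 0.542), above the flank in 3 of 3. It was in 2.64% of weaker pooled summits under the rule and in 2.12% of windows 300 bp from all eligible start sites. Downstream members had it more often than upstream members, 6.61 against 3.79%. The difference between the sides was not tested.

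The word CAGGGGG, resembling the site of vertebrate INSM1, was found at 0.574% of the members (8 of 1393) and 0.718% of flanks. It was in 0.410% of windows 300 bp from all eligible start sites. In replicates 1, 2 and 3 it was at 0.790, 0.271 and 0.938%, with 0.647, 0.678 and 0.722% in the flank. Replicate 2 alone was thus below its flank. The word TATCGATA for the promoter factor DREF was at 0.215% of members, 0.646% of flanks and 0.450% of windows 300 bp from all eligible start sites. GGTCACAC, part of the site of the promoter factor M1BP, was at 0.215, 0.431 and 0.227% of these. The GAGA word was at 5.24% of members and 4.24% of flanks, against 4.70% of weaker pooled summits, 1.71% of the windows 300 bp from all eligible start sites and 2.48% of the distance-weighted reference. The mean difference from the flank over the replicates was 0.959 points, or 1.98 without replicate 2, 0.612 without replicate 1 and 0.283 without replicate 3. Upstream it was at 7.89 and 8.29% in replicates 1 and 3 and at 3.28% in replicate 2. Besides the Scalloped word, 3 words were above the flank in all 3 replicates. The Su(H) word was at 1.87% of members against 1.22% of flanks and 1.16% of the windows 300 bp from start sites, and the E-box CACGTG at 1.65 against 0.933 and 1.12%. CAGGTAG, read by the early activator Zelda, was at 0.646% of members, 0.287% of flanks and 0.670% of those windows, so it was not above the latter. In the replicates it was at 0.575, 0.678 and 0.722% with 0.503, 0.543 and 0.433% in the flank, and among upstream summits it was above the flank in 1 of 3. Other words went the other way over both sides. The E-box CAGCTG was below the flank in all 3 replicates, at 3.59% of members against 5.03% of flanks. The words of DREF, M1BP, CREB (TGACGTCA) and Pangolin (CTTTGATC or CTTTGATG) were above the flank in no replicate. A match says only that the letters are present.

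The members fell to 1204 genes, 11.2% of the 10738 with an eligible start site, and to 8.82% of eligible start sites. Of these genes 1046 had 1 member, 54 had members on both sides and 161 also had a core summit. Rtnl1, a reticulon gene of the endoplasmic reticulum, had 6, all upstream, with ranks from 180 to 6742. Moe, for the membrane-cytoskeleton linker Moesin, and chb, for the microtubule-binding protein Chromosome bows, had 4 each. These genes have several start sites at which a member could lie, 7 in Rtnl1, 8 in Moe and 3 in chb. The genes with 3 were led by spi, dikar and CG4467, with elav, RapGAP1, Ptpmeg2 and Tomosyn behind. elav, an RNA-binding protein used as a marker of neurons, had all 3 upstream, the strongest at 266 bp (rank 140, and 225, 112 and 180 in the replicates).

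Genes of the nervous system were counted by list. The lists differ in start sites per gene, so shares of genes and of start sites are both given. Of the temporal factors, which neuroblasts express in sequence, 9 of 19 genes (47.4%) and 16.1% of start sites had a member, in an average of 2.95 eligible start sites per gene against 1.40 over all genes. Of neuron identity factors it was 10 of 31 (32.3%) and 17.5% of start sites, of axon guidance genes 11 of 27 (40.7%) and 12 of 48 start sites, of neuroblast genes 4 of 17 (23.5%) and 14.3%, and of synapse genes 5 of 24 (20.8%) and 10.5%. Over all genes and start sites the shares were 11.2% and 8.82%. Of these neural lists, the synapse list had the start-site share nearest to the latter.

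The best-ranked genes of the single lists were SoxN, a Sox factor of neural progenitors (rank 50, 153 bp upstream), brp, for the active-zone protein Bruchpilot (rank 79, 190 bp upstream), cas, a temporal factor (rank 154, 365 bp upstream), vvl, a POU factor of the neuron identity list (rank 387), and robo3, a Slit receptor gene of the axon guidance list (rank 751). SoxN ranked 34, 161 and 37 in the replicates, brp 61, 298 and 50, and cas 90, 549 and 103. The ranks were 366, 980 and 186 for vvl and 732, 1379 and 449 for robo3. These 5 ranked lowest in replicate 2, whereas the strongest summit of elav, which is in the synapse list and had rank 140, ranked best there. By replicate, temporal factors had 11, 6 and 9 genes with a member, neuron identity factors 12, 5 and 13, axon guidance genes 10, 9 and 5, neuroblast genes 5, 1 and 3, and synapse genes 6, 5 and 5.

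Signalling and growth genes and those of other tissues were counted in the same way. Of the Hippo pathway 5 of 11 genes (45.5%) had a member, and 22.7% of start sites, led by sd, the gene of Scalloped itself (rank 672, 134 bp upstream, then 339, 2366 and 408). Of the Notch pathway it was 6 of 23 (26.1%) and 20.7% of start sites, led by E(spl)m3-HLH, a Notch target (rank 338, 433 bp upstream). Of cell-cycle genes it was 6 of 18 (33.3%) and 17.6% of start sites, led by trbl. By replicate it was 5, 9 and 4 cell-cycle genes. The Hippo list had 5, 5 and 4 and the Notch list 6, 7 and 7. CycE, the S-phase cyclin gene, had a member 488 bp upstream of an internal start site in sequence of 18.9% G+C (rank 531), which was found in replicate 2 alone, at rank 213. Glial genes had 4 of 12, led by pnt, an ETS factor gene (rank 331), and gut and fat body genes 4 of 8, led by fkh, a forkhead gene (rank 790). Shares above 11.2% of genes and 8.82% of start sites thus also occurred in lists that are not neural.

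Muscle and mesoderm genes had 1 of 16 (6.25%), the heart gene tin (rank 146), and 2.78% of start sites. Few genes made up the other tissue lists. Blood had 1 of 8 (12.5%), the zinc-finger gene ush (rank 680), and 14.3% of start sites. The germ line had 1 of 6 (16.7%), bgcn (rank 1396), and 12.5% of start sites. Trachea and epidermis had 2 of 11 (18.2%), led by trh (rank 1045), and 8.70% of start sites. Ribosomal protein genes had 6 of 56 (10.7%) and 6.45% of start sites, led by RpS10a. Mitochondrial ribosomal protein genes had 4 of 20 and 19.0% of start sites, led by mRpL41. In replicates 1, 2 and 3 it was 2, 6 and 1 of these genes, and 8, 12 and 6 of the ribosomal protein genes. Both lists were thus highest in replicate 2. Of chemoreceptor genes, which embryos of this age hardly use, 0 of 108 had a member in the IDR list and 0, 0 and 1 in the replicates. The nearest start site need not be that of the gene on which a site acts.

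A member stood at nerfin-1 itself, 128 bp upstream of its only start site (chr3L, summit 908984, dm6, rank 475). Its rank was 182 in replicate 1 and 156 in replicate 3, and replicate 2 had no summit within 100 bp of it in its full list. A core summit 91 bp downstream of the same start site had rank 4222. The member therefore rests on 2 of the 3 replicates.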

How the data were processed

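ChIP-seq peak lists of 3 replicates, of the pooled replicates and of the IDR-thresholded set were analysed, all on dm6 per the labels. The authors deposited them as narrowPeak rows with a signal value per peak, called against a control that was not used here, per the file headers. Which aligner and peak caller were used, and at what IDR threshold, is not given in the sources used here; depth is unknown. Replicate and pooled lists held 30000 rows each. All 7056 IDR rows were the strongest pooled rows. An age label too large for an embryo was set aside for the range in the source label, and fragments were 200 to 800 bp per the labels.

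Start sites came from Ensembl release 115 and sequence from RefSeq release 6, whose arm lengths are those of dm6. For each replicate the 7056 peaks of highest signal were kept. G+C was taken over 200 bp, words over 50 bp to either side. The reference for location and G+C was the positions at the centre of each 50-bp distance bin around every eligible start site, weighted to the distances of the members, a choice made after the data were seen. Differences paired within a replicate were tested by exact two-sided sign-flip permutation over the 3 replicate values. Whether the replicates came from separate parents is not stated, and the intervals cover counting of summits only. Analysis used Python 3.11.15, numpy 2.4.6, pandas 2.3.3 and scipy 1.17.1, and the functions were tested on simulated data.

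The members, the 17 gene lists and the 13 words were chosen with earlier results of these data known. Named were the genes of the 10 strongest members on each side, the 10 with the most members, the best-ranked of each list, the members at the limits as counts, and nerfin-1; CycE was chosen after its values were seen. Of 251 listed symbols all were matched, 4 by an older symbol. Alternatives changed start sites, limits, matching, windows, strength and replicates.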

Additional observations from a re-analysis of the deposited data

How the results depend on the processing

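The upstream share was 65.1 to 76.5% and G+C downstream minus upstream 4.59 to 7.58 points over the alternatives run for them. The count of words above the flank in every replicate, 4 as reported, was 3 to 6. With only the first start site of each gene, the upstream share was 65.1%, the median rank 3069 and the share of genes 9.65%. The median rank was 2785.5 with an inner limit farther out by 50 bp, and the stronger part of the list held 805 members. Recurrence was 68.7% within 50 bp, 81.7% within 200 bp and 92.3% among all peaks, and 95.8% and 91.6% of recurring members kept class and side within 50 and 200 bp. Leaving out each replicate in turn, with members limited to those recurring in both others, gave median ranks of 1544 to 2056.5 and gene shares of 6.72 to 8.04%. The downstream minus upstream recurrence turned to -3.12 points within 50 bp and -1.29 among all peaks and ranged from -4.07 to 10.1 without single replicates, the high value without replicate 2. Members minus core turned to -0.0721 among all peaks and ranged from -2.70 to 5.41, the low value without replicate 2. G+C at the summit minus flank ranged from -2.48 to 0.105 without single replicates, the high value without replicate 2, and was -2.68 in the stronger part and -2.61 over 100 bp. The Scalloped word was above its flank by 1.78 points within 25 bp and by 2.32 to 3.37 under the other settings. Of the other words, the INSM1-like word ranged from -0.132 to 0.180 points without single replicates, the high value without replicate 2, and turned to 0.00637 in the stronger part and 0.339 against a flank towards the start site, where CREB gave 0.00154 and AP-1 0.284; GAGA gave -0.289 in the stronger part, CAGGTG 0.00235 within 25 bp, and Zelda -0.0676 and M1BP 0.531 within 100 bp. The causes were not tested. No paired analysis was possible because there is 1 group, and the exact permutation test could pass no threshold under any setting. Unknown depth and 3 replicates limit the precision of every value.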

Other observations

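All 2080 words of 6 letters, each counted together with its reverse complement, were also compared between the window of 50 bp to either side of the summits and the flank, a search made after the data were seen and given with no test. Those with the largest excess in the replicate of least excess were A+T-rich upstream, led by ATTTAA, at 29.1% of upstream members and 19.3% of their flanks. It was at 23.7, 33.2 and 23.5% of upstream summits in replicates 1, 2 and 3. Downstream the leading word was CACAAA, at 16.0% against 9.09%, with 15.8, 16.9 and 15.8% in the replicates. Over both sides the leading words were AAATTC, at 16.6 against 12.85%, and CAAATA, at 16.2 against 11.9%. AATTCC, which shares ATTCC with the Scalloped words, had place 3, at 10.7 against 6.82%, with 10.4, 10.5 and 10.9% in the replicates. Most of the first 10 were A+T-rich, and 342 of the 2080 words were above the flank in all 3 replicates.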
